A study of Mus musculus with 2 samples.

Results

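The replication-dependent histone genes of the mouse were followed here in single cells of the aorta-gonad-mesonephros (AGM) region at embryonic day 11. They were taken as every gene whose symbol starts with Hist1h, Hist2h, Hist3h or Hist4h, which gave 67 of the 31053 genes in the count tables. The 67 genes encode linker histone H1 (6 genes) and the core histones H2A (18), H2B (18), H3 (12) and H4 (13). In the GRCm38 assembly, 54 of them lie in the Hist1 group on chromosome 13, 10 in the Hist2 group on chromosome 3, 2 in the Hist3 group on chromosome 11 and 1, Hist4h4, on chromosome 6. All 67 are annotated as protein-coding.

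Core histones wrap DNA into nucleosomes and H1 binds the DNA between them, so a cell that copies its genome must make new histones in step with DNA synthesis. The genes that supply this burst lie in clusters, lack introns as a rule, and make mRNAs that end in a conserved stem-loop instead of a poly(A) tail. The stem-loop is bound by SLBP, which carries the mRNA through processing, translation and decay at the end of S phase. The 10x Chromium 3′ method primes reverse transcription on runs of A, so it counts these mRNAs only where they carry a poly(A) tail or an internal A-rich stretch, and the number of UMIs of a histone gene is a level of captured molecules rather than of all its mRNA. Each UMI (unique molecular identifier) stands for 1 captured molecule whatever the length of the transcript, and no division by length was made.

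The study deposited 1 WT library (PDGFRB +/+) and 1 KO library (PDGFRB -/-) of whole AGM, from a KO line that its methods give as kept heterozygous on C57BL/6J, and asked how loss of PDGFRβ changes the cells around the aorta. With 1 library per genotype no test between genotypes was possible, and the number of embryos in a library is not given in the sources used here. Barcodes with at least 2000 UMIs and under 10% mitochondrial UMIs were taken as cells, 8253 in WT with a median of 13321 UMIs and 8165 in KO with a median of 12391 UMIs. Levels are CPM, the UMIs of a gene scaled to all UMIs of the cells summed, with exact Poisson 95% intervals. Ratios are log2 with exact conditional binomial 95% intervals. Both kinds of interval cover counting error only, not the variation between embryos or between cells.

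Pdgfrb itself stood at 43.1 CPM in WT against 7.09 CPM in KO. The libraries also differed in sex: Xist was at 793 CPM in WT against 0.415 CPM in KO, and Eif2s3y, Kdm5d, Uty and Ddx3y, which lie on the Y chromosome, summed to 0.0266 and 163 CPM. Genotype, sex and library therefore cannot be told apart in any difference given below. In all, 20 of the barcodes used as cells occurred in both libraries.

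The 3′ ends of the transcripts are shown first, since capture begins there. A stem-loop of the histone type was found in the GENCODE M21 transcripts of 45 of the 67 genes, in 8 versions of which the most common was held by 25 genes. Only the longest protein-coding transcript of each gene was searched, and those of the other 22 do not hold it. Some of these are short, such as that of Hist1h4k with 312 bases, so the search does not show that these genes lack a stem-loop. Of the 45, 19 end within 50 bases after the stem-loop and 18 run more than 200 bases beyond it, and 14 hold the poly(A) signal AATAAA after it. The windows below hold 12 bases before and 2 bases after the stem-loop, in capitals, for the H2A genes with the most A before it and for members that differed from them in the cell comparisons.
Hist1h2ap: aaaaaaaaaaaaGGCTCTTTTCAGAGCCat
Hist1h2ao: aaaaaaaaaaaaGGCTCTTTTCAGAGCCat
Hist1h2ae: aaaaaaaacaaaGGCTCTTTTCAGAGCCat
Hist1h2ad: tataaaaacaaaGGCTCTTTTCAGAGCCat
Hist1h2ab: aaccaaaacaaaGGCTCTTTTCAGAGCCac
Hist1h1e: caacaacccaaaGGCTCTTTTCAGAGCCac
Hist1h4d: ccaaaaaccaaaGGCCCTTTTCAGGGCCac
Hist1h3c: tatttaaaaaaaGGCTCTTTTAAGAGCCac
Hist3h2ba: ccccaacccaaaGGCTCTTTTCAGAGCCac
Hist3h2a: acagacaccaaaGGCTCTTTTCAGAGCCac
All 12 bases before the stem-loop of Hist1h2ap and of its near-copy Hist1h2ao are A, the longest A run in either transcript. Hist1h2ae has 11 A of 12, Hist1h2ad and Hist1h2ab 9, and the other 40 stem-loop genes 3 to 8.

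Many members are near-copies of each other, which limits what a count for 1 gene means. Of the 67, 31 share more than 50% of their 60-base stretches with another gene, and 5 (Hist1h1a, Hist1h1b, Hist1h1t, Hist1h2aa and Hist2h2be) share none. Hist1h2ap (chromosome 13, 21833026 to 21833507, minus strand) shares 92.9% of its 60-base stretches, and all of those in its last 300 bases, with other genes, the closest being Hist1h2ao (chromosome 13, 21810465 to 21810944, plus strand). Where reads match several genes, the count of 1 member depends on how the authors' counting placed them, and a value for Hist1h2ap may hold molecules of its copies. Hist1h2ao itself had 32 UMIs in WT and 27 in KO.

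Histone UMIs were abundant in both libraries, and 64 of the 67 genes had at least 1 UMI in each. Summed over the members, the level was 1875 CPM (1868 to 1882, 281631 UMIs) in WT against 1152 CPM (1147 to 1158, 163886 UMIs) in KO, and log2 of KO over WT was -0.70 (-0.71 to -0.69). The sum was carried by few genes. In WT, Hist1h2ap held 41.9% of the histone UMIs, Hist1h2ae 13.8% and Hist1h1b 10.5%, while in KO Hist1h1b held 24.3%, Hist1h1e 8.86% and Hist1h2ae 8.37%. Hist1h2bq and Hist1h2ba had 0 UMIs in both libraries, and Hist1h4m had 1 in each. Hist2h2aa2 had 0 in WT and 1 in KO, and Hist1h2aa 2 in WT and 0 in KO. Hist1h2bq and Hist2h2aa2 share 100% of their 60-base stretches with another gene, Hist1h4m 89.5%, Hist1h2ba 36.3% and Hist1h2aa none. Where reads match several genes, a count near 0 does not show that a gene is silent. The floor used for a count below 3 UMIs was 3 UMIs.

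The lower sum in KO was gone once 1 gene was left out. Hist1h2ap was at 786 CPM (781 to 790, 117995 UMIs) in WT against 21.9 CPM (21.2 to 22.7, 3120 UMIs) in KO. The ratio of these UMI levels was 35.8-fold, or -5.16 (-5.21 to -5.11) in log2 of KO over WT; it compares captured UMIs, and its KO side lay below the level of free RNA given below. A UMI of Hist1h2ap was held by 69.5% of WT cells and 20.6% of KO cells, and after thinning each cell to 2000 UMIs by 43.8% and 3.58%. Without Hist1h2ap the summed level was 1090 CPM (1084 to 1095) in WT against 1130 CPM (1125 to 1136) in KO, with a log2 ratio of 0.05 (0.04 to 0.06). This does not mean that the other members were level between the libraries. The sum still holds Hist1h2ae, at 259 CPM in WT against 96.4 CPM in KO, and a sum of all members without both genes was not made. Among the 17628 genes with at least 20 UMIs over both libraries Hist1h2ap had the 5th lowest ratio, and among the 4058 genes with at least 10000 UMIs the 2nd lowest.

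**Figure D1:**
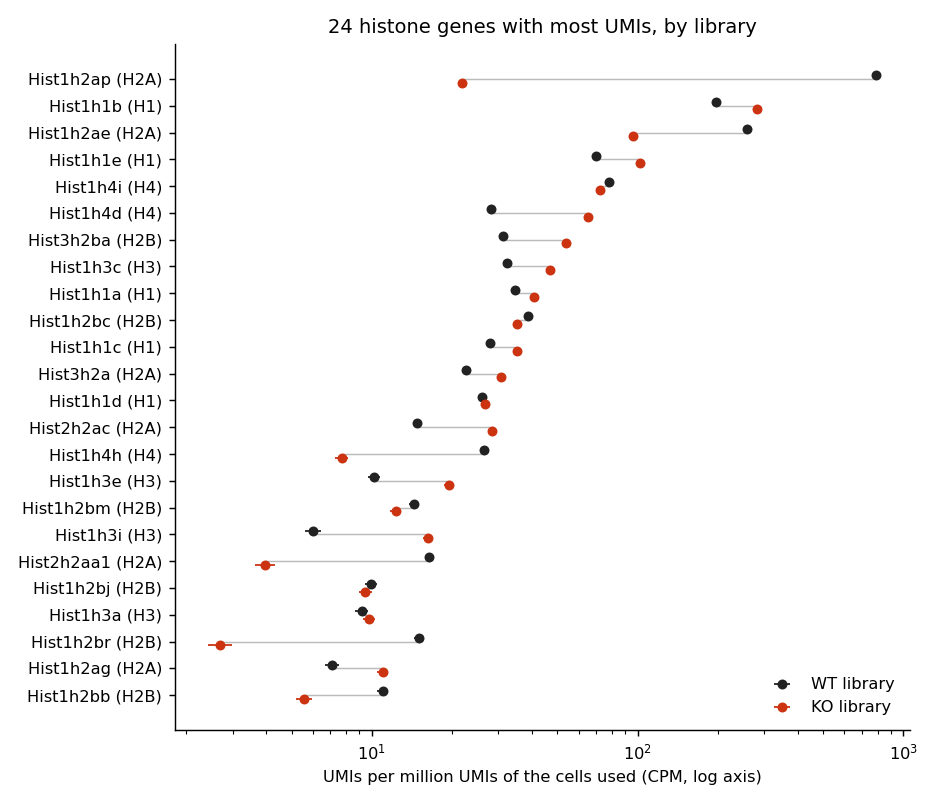
Levels of the 24 histone genes with most UMIs over both libraries, in CPM on a log axis, with WT in black and KO in red; bars are exact Poisson 95% intervals and grey lines join the libraries. Hist1h2ap lay at 786 CPM in WT against 21.9 CPM in KO, while Hist1h1b, Hist1h1e and Hist1h4d lay higher in KO.

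The gap held outside the cells as well. In barcodes with at most 100 UMIs, which hold free RNA of the suspension, Hist1h2ap was at 441 CPM in WT against 84.0 CPM in KO, and the summed members were at 1441 (1394 to 1489) and 1093 CPM (1052 to 1136). In KO the level of Hist1h2ap in cells, 21.9 CPM, lay below that of the free RNA, and how much of it was background was not tested. Part of that free RNA sat on barcodes of the other library: 4599 KO barcodes with at most 100 UMIs had the sequence of a barcode used as a cell in WT, and these held 10.9% of the UMIs of such barcodes but 46.0% of their Hist1h2ap UMIs (91), at 354 CPM (285 to 435). On all other KO barcodes with at most 100 UMIs, Hist1h2ap was at 50.9 CPM (41.7 to 61.5). In the reverse direction, WT barcodes used as KO cells held 8 Hist1h2ap UMIs, at 29.0 CPM (12.5 to 57.1), against 492 CPM (464 to 523) on the other WT barcodes.

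By protein family, the summed level of H1 was higher in KO, and that of H2A was lower through Hist1h2ap and Hist1h2ae. The 6 H1 genes, which compact chromatin between nucleosomes, summed to 356 CPM (353 to 359) in WT against 485 CPM (482 to 489) in KO, with a log2 ratio of 0.45 (0.43 to 0.46), and the ratios of the 6 genes ran from 0.03 to 0.55. The intervals of Hist1h1d (-0.04 to 0.09) and Hist1h1t (-0.39 to 0.89) hold 0. H2A summed to 1130 CPM in WT against 227 CPM in KO, with a log2 ratio of -2.31 (-2.33 to -2.30), and of -0.75 (-0.77 to -0.73) without Hist1h2ap. Without Hist1h2ap and Hist1h2ae, left out after their values were seen, the other H2A genes summed to 85.7 CPM in WT and were higher in KO at 109 CPM (0.35, 0.31 to 0.38). The median log2 ratio over the 16 counted H2A genes was 0.32. The other families differed less: H2B was at 151 and 166 CPM (log2 ratio 0.14, 0.12 to 0.17), H3 at 86.8 and 108 CPM (0.32, 0.29 to 0.35) and H4 at 151 and 165 CPM (0.13, 0.10 to 0.15). The leading gene was Hist1h1b for H1, Hist1h3c for H3 and Hist1h4i for H4 in both libraries, Hist1h2bc in WT and Hist3h2ba in KO for H2B, and Hist1h2ap in WT and Hist1h2ae in KO for H2A.

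Single members differed between the libraries in both directions. Of the 62 members with at least 20 UMIs over both libraries, 17 were at least 1.5-fold higher in KO, against 8.58% of all 17628 genes, and 15 were at least 1.5-fold lower, against 7.47% of all genes. The median log2 ratio was 0.27 over the 62 members and 0.06 over all genes. Within the mesenchyme gate described below, 17 of 60 members were higher (7.13% of all genes there) and 15 lower (5.78%). With a fold of 2 in place of 1.5, 8 members were higher, against 3.61% of all genes, and 12 lower, against 3.45%.

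Besides Hist1h2ap, the lowest ratios of KO over WT were those of the H2B gene next to it, of the H3 genes Hist2h3b and Hist1h3b and of the H2A gene Hist1h2ad. Hist1h2br was at 15.1 CPM in WT against 2.69 CPM in KO (log2 ratio -2.48, -2.64 to -2.33). Hist2h3b was at 5.30 and 1.08 CPM (-2.29, -2.55 to -2.04). Hist1h2ad was at 4.10 and 0.900 CPM (-2.19, -2.47 to -1.91), and Hist1h3b at 11.2 and 2.68 CPM (-2.06, -2.22 to -1.90). All of these intervals lie apart between the libraries. In none of the 12 cell classes described below was Hist1h2br, Hist1h2ad or Hist1h3b higher in KO. A class with no UMIs of the gene also counts as not higher. Hist2h3b was higher in 1 class. In the order given, KO free RNA held these genes at 4.24, 2.97, 1.27 and 6.36 CPM. Their KO cell levels lay below that, but these free RNA levels rest on few UMIs and are given without intervals. How much of the KO cell levels was background was not tested. They share 99.8%, 79.3%, 66.5% and 59.7% of their 60-base stretches with another gene.

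The highest ratios were those of the H2A genes Hist1h2an and Hist1h2af, the H3 genes Hist1h3h and Hist1h3i and the H2B gene Hist1h2bn. Hist1h2an was at 1.80 CPM in WT against 6.93 CPM in KO (log2 ratio 1.95, 1.75 to 2.15), and Hist1h2af at 1.55 and 5.02 CPM (1.69, 1.48 to 1.91). Hist1h3h was at 0.866 and 2.53 CPM (1.55, 1.25 to 1.85), Hist1h3i at 6.03 and 16.3 CPM (1.44, 1.32 to 1.55), and Hist1h2bn at 2.28 and 5.78 CPM (1.34, 1.16 to 1.53). These 5 genes hold few UMIs, and all 5 share more than 50% of their 60-base stretches with another gene.

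Among the 10 members with most UMIs, the H1 genes Hist1h1b and Hist1h1e, the H4 gene Hist1h4d, the H2B gene Hist3h2ba and the H3 gene Hist1h3c were higher in KO, as was the H1 gene Hist1h1a (34.7 and 40.8 CPM; log2 ratio 0.23, 0.18 to 0.29). Of these 6, Hist1h4d and Hist3h2ba (31.1 and 54.0 CPM; 0.79, 0.74 to 0.85) passed 1.5-fold and the others did not. Hist1h1b was at 197 CPM (195 to 199.6) in WT against 280.2 CPM (277 to 283) in KO, with a log2 ratio of 0.51 (0.48 to 0.53), and Hist1h1e at 69.8 and 102 CPM (0.55, 0.51 to 0.59). Hist1h4d stood at 28.1 and 65.0 CPM (1.21, 1.16 to 1.26) and was higher in KO in all 12 classes. Its intervals in the erythroid gate (0.27, -0.04 to 0.58) and the epithelial gate (1.09, -0.06 to 2.38) hold 0. Hist1h2ae, the H2A gene with the second most UMIs in WT, went the other way, from 259 CPM (256 to 262) in WT to 96.4 CPM (94.8 to 98.0) in KO (-1.43, -1.45 to -1.40), and was lower in all 12. Hist1h4i (77.9 and 71.9 CPM; -0.11, -0.15 to -0.08) and Hist1h2bc (38.6 and 35.1 CPM; -0.14, -0.19 to -0.08) were lower in KO by less than 1.5-fold. Some of these cell levels lay below the free RNA of their library. This held in WT and KO for Hist1h1a (free RNA at 36.6 and 42.4 CPM) and Hist1h2bc (44.3 and 35.6 CPM). It also held in WT for Hist1h1e (76.1 CPM) and Hist3h2ba (34.6 CPM), and in KO for Hist1h4i (72.9 CPM). How much of these levels was background was not tested.

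**Figure D2:**
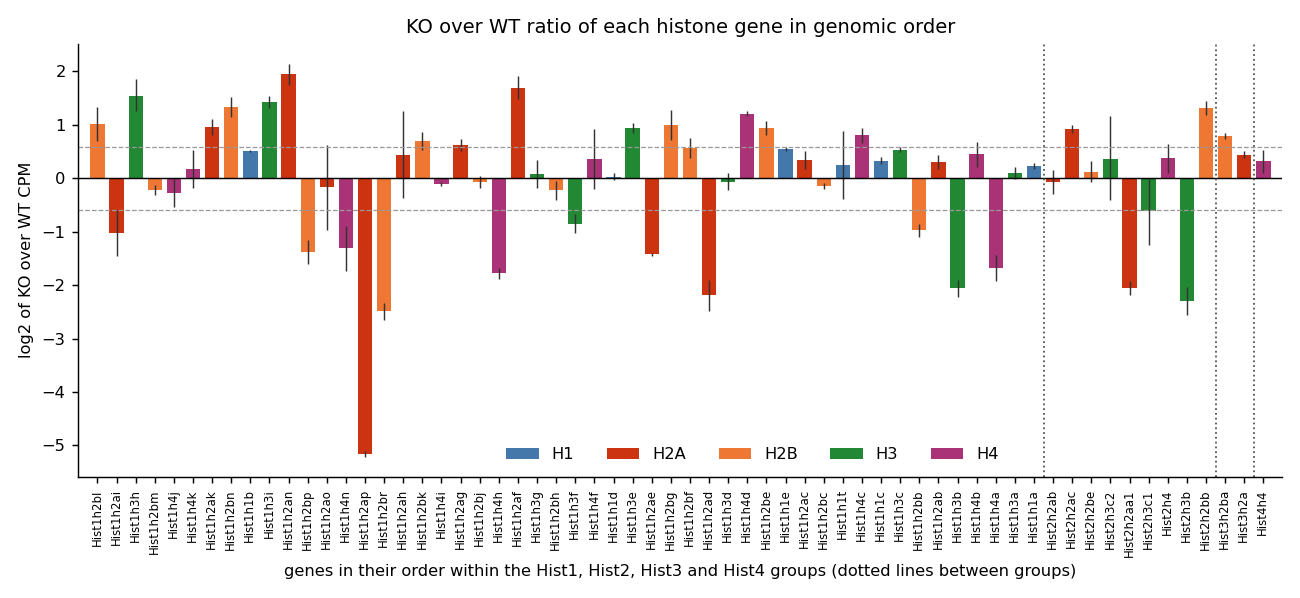
Log2 ratio of KO over WT for the 62 members with at least 20 UMIs over both libraries, in their order within the Hist1, Hist2, Hist3 and Hist4 groups (dotted lines), coloured by family; error bars are 95% intervals and dashed lines mark 1.5-fold. Some neighbours lie on the same side of 0 and others do not, with Hist1h4n, Hist1h2ap and Hist1h2br lower next to each other and Hist1h2af 1.69 above 0.

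Some neighbouring genes had ratios of the same sign and others did not; the genes in these examples were picked with their values known. Hist1h4n, Hist1h2ap and Hist1h2br, which follow each other on chromosome 13, had log2 ratios of -1.30, -5.16 and -2.48, whereas just before them Hist1h2bq and Hist1h4m had at most 1 UMI per library and Hist1h2ao had a ratio of -0.17 (-0.96 to 0.62). Hist1h2bn, Hist1h1b, Hist1h3i and Hist1h2an (1.34, 0.51, 1.44 and 1.95) follow each other, beside Hist1h2bp (-1.38, -1.60 to -1.16). In the Hist2 group, Hist2h3b at -2.29 lies next to Hist2h2bb at 1.31 (1.18 to 1.45).

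Genes with near-copies showed larger differences in both directions. Of the 28 counted members that share more than 50% of their 60-base stretches with another gene, 10 were at least 1.5-fold higher in KO, 9 lower and 9 in between, with a median size of the log2 ratio of 1.02. Of the 34 counted members that share at most 50%, 7 were higher, 6 lower and 21 in between, with a median size of 0.41. Of the 5 genes with 9 to 12 A before the stem-loop, Hist1h2ap, Hist1h2ae and Hist1h2ad were at least 1.5-fold lower in KO and Hist1h2ao and Hist1h2ab (log2 ratio 0.30, 0.17 to 0.43) in between. Together the 5 held 158481 of the histone UMIs in WT and 18093 in KO. Most of these were of Hist1h2ap (117995 in WT and 3120 in KO) and Hist1h2ae (38891 and 13713). Of the 22 counted genes with 6 to 8 A, 6 were higher and 4 lower, and of the 16 with 3 to 5 A, 3 were higher and 4 lower. Of the 19 counted genes with no stem-loop found in the transcript searched, 8 were higher and 4 lower. Over all genes, 8.58% were higher and 7.47% lower. The bounds of these A counts were set with the values known, and the part of copies, of A-rich stretches and of the DNA sequence of the embryos in the differences was not tested.

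Across cell classes, histone levels were highest in the sclerotome and mesenchyme gates. Each of the 12 classes was gated by UMIs of its own marker genes, none of which was a histone, replication or mitosis gene, and all listed genes in the files were detected in their gates except 1 of the 7 of the coelomic and gonadal list. The sclerotome gate (with Pax1, Pax9 and Meox1 among its genes; 845 WT and 1365 KO cells) was at 2610 CPM (2583 to 2638) in WT against 1368 CPM (1352 to 1384) in KO. The mesenchyme gate (3578 and 3907 cells) was at 2160 CPM (2149 to 2172) and 1244 CPM (1236 to 1253). In KO this interval lies within that of the coelomic and gonadal gate, at 1224 CPM (1186 to 1263). The lowest class in WT was the epithelial gate with 24 cells, at 1267 CPM (1195 to 1342), whose interval overlaps that of the endothelial gate at 1311 CPM (1276 to 1346). In KO the epithelial gate (37 cells) was at 548 CPM (507 to 591) and the erythroid gate at 620 CPM (597 to 643).

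Without Hist1h2ap the order of the classes stayed led by sclerotome and mesenchyme, at 1515 and 1262 CPM in WT and 1342 and 1221 CPM in KO, and the differences between the libraries went both ways. The erythroid gate was at 946 CPM (929 to 962) in WT against 610 CPM (588 to 633) in KO. The smooth muscle gate was at 830 CPM (819 to 842) and 1048 CPM (1032 to 1063), and the sympathetic neuron gate at 766 CPM (732 to 802) and 1040 CPM (998 to 1083). Mki67 differed the same way in these 3 gates but not in all: it was at 371 and 238 CPM in the erythroid gate, 186 and 243 CPM in the smooth muscle gate, and 173 and 302 CPM in the sympathetic neuron gate. In the sclerotome (236 and 257 CPM), epithelial (133 and 180 CPM) and mesenchyme (237 and 258 CPM) gates Mki67 was higher in KO while the histone level without Hist1h2ap was lower, and in the endothelial gate Mki67 was at 158 and 215 CPM while the histone ratio was 0.02 (-0.05 to 0.10). The histone levels without Hist1h2ap still hold Hist1h2ae, which was lower in KO in each of these gates. In WT and KO it was at 396 and 116 CPM in sclerotome, 76.5 and 35.2 CPM in the epithelial gate and 309 and 107 CPM in mesenchyme. The parts of Mki67 and of Hist1h2ae in the histone differences were not tested. Without Hist1h2ap, 10 of the 12 classes in WT and 6 of the 12 in KO lay below the free RNA of their library, which was at 1000.5 and 1009 CPM. Over the 12 gates, Spearman's rho of the level without Hist1h2ap was 0.83 in WT and 0.63 in KO with Mki67, and 0.13 and 0.34 with Pcna. With Hist1h2ap included, rho was 0.55 and 0.63 with Mki67 and 0.33 and 0.34 with Pcna. Pearson's r of the level without Hist1h2ap was 0.42 and 0.62 with Mki67 and 0.22 and 0.44 with Pcna. The points of a library share its depth, free RNA and scaling to all UMIs.

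**Figure D3:**
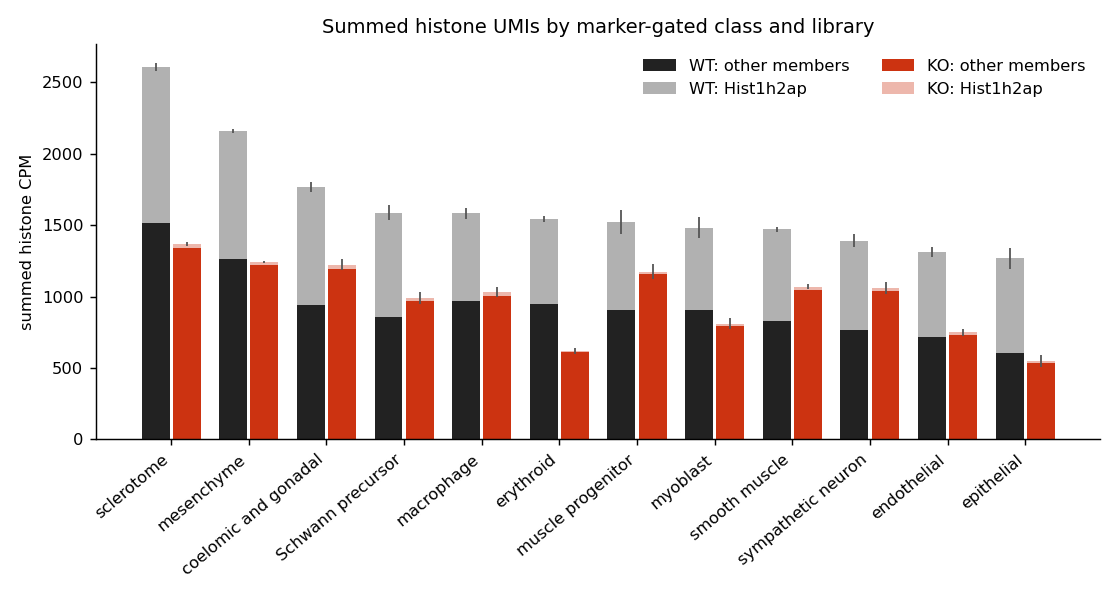
Summed level of the histone genes in CPM in the 12 cell class gates of the WT and KO libraries, as stacked bars of Hist1h2ap (pale) and the other members (dark); lines are exact Poisson 95% intervals of the sum. The sclerotome gate was highest at 2610 CPM in WT against 1368 CPM in KO, and without Hist1h2ap the libraries lie closer together.

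Hist1h2ap led every class of WT and Hist1h1b every class of KO. In the KO erythroid gate the interval of Hist1h1b (87.8 to 105.9) overlaps those of Hist1h4i (80.4 to 97.8) and Hist1h2bc (72.6 to 89.2). In the KO epithelial gate the interval of Hist1h1b (66.0 to 99.3) overlaps that of Hist3h2ba (54.0 to 84.5). Hist1h2ap was lower in KO in all 12 classes, at levels below that of the KO free RNA, so no fold is given by class. Its WT level ran from 577 CPM (534 to 622) in myoblasts to 1095 CPM (1078 to 1113) in sclerotome, and its KO level from 9.70 CPM in erythroid cells to 29.0 CPM in the coelomic and gonadal gate. Hist1h1b was highest in sclerotome, at 321 CPM in WT against 348 CPM in KO, and lowest in the epithelial gate, at 58.0 and 81.4 CPM.

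A few members had another order of classes. Hist3h2ba and Hist3h2a, the H2B and H2A genes of the Hist3 group, were highest in the sympathetic neuron gate. Hist3h2ba stood there at 106 CPM (93.4 to 120) in WT against 129 CPM (114 to 145) in KO, and was lowest in the erythroid gate at 3.14 and 4.53 CPM, a span of 33.8-fold and 28.5-fold. Hist3h2a was at 34.2 CPM in WT against 57.7 CPM in KO in the sympathetic neuron gate. In WT these leading intervals overlap those of other gates. Among them were the epithelial gate for Hist3h2ba, at 90.8 CPM (72.3 to 112.5), and the smooth muscle gate for Hist3h2a, at 28.8 CPM (26.7 to 31.0). Hist1h4i was highest in the erythroid gate in both libraries, at 151 CPM (145 to 158) and 88.8 CPM (80.4 to 97.8). Hist1h2bc was highest in the erythroid gate in WT, at 80.7 CPM, and in macrophages in KO, at 90.5 CPM, and lowest in myoblasts in both, at 12.1 and 14.4 CPM. The erythroid and macrophage intervals of Hist1h2bc overlap in both libraries, and those of Hist1h4i overlap in KO.

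The muscle lineage compared progenitors (Pax7, Myf5, Pax3, Msc, Myod1 or Cdh15 with no Myog UMI) with myoblasts that hold Myog, the factor of muscle differentiation. In WT the 41 progenitors were at 1523 CPM and the 58 myoblasts at 1483 CPM, a log2 ratio of 0.04 whose interval (-0.07 to 0.14) holds 0. In KO the 96 progenitors were at 1175 CPM and the 134 myoblasts at 810 CPM, a log2 ratio of 0.54 (0.45 to 0.63). With a mitochondrial share under 5% the WT ratio was -0.48, and with a stricter gate of 5 UMIs from 3 genes 0.77.

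Histone levels were set against Pcna, the sliding clamp of DNA replication, and Mki67, a marker of cycling cells, within the mesenchyme gate after each cell was thinned to 2000 UMIs, with the levels taken from all UMIs. In WT the summed level was 1727 CPM (1714 to 1741) in the 2322 cells with neither UMI, 2413 CPM (2373 to 2454) in the 336 with Pcna only, 2741 CPM (2718 to 2765) in the 807 with Mki67 only and 3327 CPM (3252 to 3403) in the 113 with both. In KO the levels in the same order were 978 (968 to 987), 1246 (1216 to 1276), 1675 (1657 to 1694) and 2002 CPM (1950 to 2055), in 2610, 353, 831 and 113 cells. The order was the same in both libraries and no neighbouring intervals overlap, but the intervals leave out the spread between cells. Depth differed with the state, with a median of 11152 UMIs in WT cells with neither and 14947 in those with both, and 11018 and 17229 UMIs in KO, and its part was not tested. Cells with both stood above cells with neither by a log2 ratio of 0.95 (0.91 to 0.98) in WT and 1.03 (0.99 to 1.07) in KO, and without Hist1h2ap by 0.89 and 1.03. With states set without thinning these ratios were 1.91 and 1.51, and depth then enters the states. With another thinning seed the WT ratio was 0.81, outside its interval of 0.91 to 0.98.

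**Figure D4:**
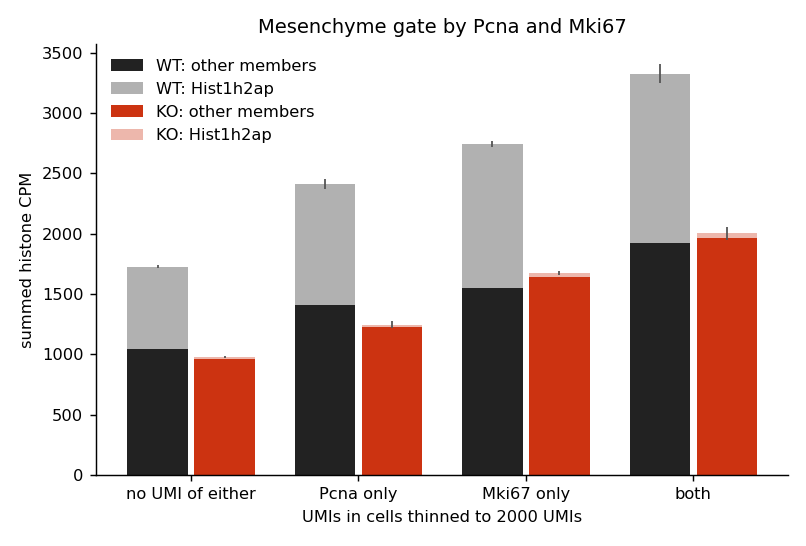
Summed histone level in CPM by Pcna and Mki67 state after thinning to 2000 UMIs, for the WT and KO libraries, with exact Poisson 95% intervals. In mesenchyme the level was 1727 CPM with neither and 3327 CPM with both in WT, and 978 and 2002 CPM in KO; the pale part of each bar is Hist1h2ap.

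The lowest and highest states were the same in sclerotome and smooth muscle. In WT sclerotome the intervals of Pcna only (2999 to 3229 CPM) and Mki67 only (3072 to 3178 CPM) overlap. For sclerotome and smooth muscle, the log2 ratios of both over neither were 0.79 (0.72 to 0.86) and 1.05 (0.98 to 1.11) in WT. In KO they were 1.39 (1.32 to 1.47) and 1.02 (0.92 to 1.12). Cells with both numbered only 22 and 29 in WT and 34 and 21 in KO, and the intervals leave out the spread between cells. In the WT erythroid gate the ratio was 1.67 (1.59 to 1.76) on 23 cells with both, and in the KO erythroid gate only 2 cells held both. By UMIs of 12 mitosis genes in the thinned mesenchyme cells, the level went from 758 CPM with 0 UMIs to 2821 CPM with at least 5 in WT and from 467 to 1724 CPM in KO. By 16 replication genes it went from 1235 to 2806 CPM in WT and from 772 to 1728 CPM in KO.

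Most members followed the sum. Of 56 members counted in WT mesenchyme, 41 were at least 1.5-fold higher in cells with both than with neither, against 11.8% of all genes, and 1 was lower, against 6.71%; in KO 46 of 56 were higher, against 11.8%, and 1 lower, against 7%. The median log2 ratio was 0.89 in WT and 1.01 in KO, against 0.05 and 0.06 over all genes. Hist1h1b had 1.15 (1.05 to 1.25) in WT and 1.44 (1.37 to 1.52) in KO, Hist1h2ae 1.02 and 1.29, Hist1h1e 1.04 and 1.27, and Hist1h1a 1.04 and 1.21. For Hist1h2ap the ratio was 1.03 (0.98 to 1.08) in WT and 1.31 (1.01 to 1.60) in KO. Hist1h4i was lower on this scale, at 0.56 (0.36 to 0.76) and 0.80 (0.62 to 0.97). The highest WT ratios, of Hist1h4f, Hist2h4, Hist1h2bg, Hist1h2bp and Hist2h2ab, rest on 2 to 29 UMIs in cells with both. In WT they ran from 1.40 for Hist2h2ab to 1.97 for Hist1h4f, whose interval (-1.31 to 4.29) holds 0. In KO the interval lay above 0 for Hist2h4 (1.81, 0.64 to 2.84) and Hist1h2bg (1.03, 0.07 to 1.88), and held 0 for Hist1h2bp (0.60), Hist2h2ab (0.47) and Hist1h4f (-0.03).

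Hist3h2ba, Hist1h2bc and Hist3h2a had state ratios below 0 in both libraries. Hist3h2ba had a log2 ratio of both over neither of -1.31 (-1.83 to -0.84) in WT and -0.47 (-0.74 to -0.22) in KO. Hist1h2bc had -0.45 (-0.87 to -0.06) and -0.65 (-1.05 to -0.28), and Hist3h2a -0.44 (-0.93 to 0.01) and -0.48 (-0.86 to -0.13). Of these, Hist3h2ba and Hist3h2a hold the stem-loop shown above with 5 and 7 A before it. Their transcripts run 169 and 1643 bases beyond it and hold AATAAA after it. The 1 transcript of Hist1h2bc that was searched does not hold a stem-loop. Hist1h3g and Hist1h3h were at -2.03 and -1.46 in WT on 1 UMI each in cells with both, and at 0.99 and 0.30 in KO. These ratios are without the floor of 3 UMIs, and with it neither gene was counted above as 1.5-fold lower in WT. Of 57 members with at least 100 UMIs over both libraries, 37 were at least 1.5-fold higher in both libraries, against 3.58% of 13376 genes by the same rule, and 4 lay below 0 in both, against 29.6%. The fourth of these, Hist1h2bf, was at -0.34 (-1.99 to 0.93) in WT and -0.08 (-1.17 to 0.84) in KO.

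**Figure D5:**
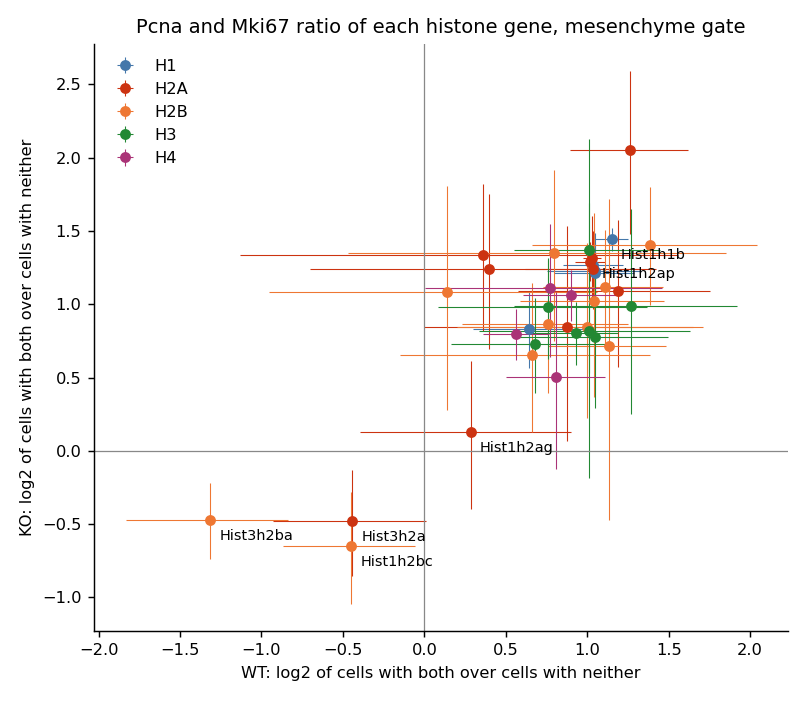
Log2 ratio of cells with Pcna and Mki67 UMIs over cells with neither in mesenchyme, WT on the horizontal and KO on the vertical axis, for the 37 members with at least 1000 UMIs. Hist3h2ba, Hist1h2bc and Hist3h2a lie below 0 in both libraries.

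Genes around histone supply differed little between the libraries. None of the 16 replication genes, 12 mitosis genes, 14 genes of histone mRNA and supply and 11 replication-independent histone genes was 1.5-fold higher or lower in KO, where 8.58% and 7.47% of all genes were, and their median log2 ratios were -0.04, -0.04, 0.06 and 0.06. Slbp, which binds the stem-loop, was at 154 CPM in WT against 126 CPM in KO (-0.30, -0.33 to -0.27), Nasp, a histone chaperone, at 518 and 607 CPM (0.23, 0.22 to 0.24), and H3f3b, which encodes the replication-independent H3.3, at 1656 and 2017 CPM (0.28, 0.28 to 0.29). Pcna was at 64.0 and 67.5 CPM and Mki67 at 229 and 247 CPM. In mesenchyme cells with both over neither, the 11 replication-independent histone genes had a median log2 ratio of 0.17 in WT and 0.26 in KO. They ran from -0.07 for H2afv to 0.56 for H2afx in WT. In KO they ran from -0.27 for H2afj to 0.62 for H2afx. Among them, H3f3a had -0.02 (-0.06 to 0.01) in WT and -0.06 in KO. For Slbp the ratios were 0.42 and 0.49.

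The promoters of 61 members were searched in RefSeq (GRCm38.p6), from 250 bases before to 50 after the start, on both strands. The octamer ATTTGCAT was held by 7 of 17 H2A and 6 of 16 H2B promoters and by none of the H1, H3 and H4 promoters, against 1.75% of all 27025 promoters. TATAAA was held by 57.4% of the members' promoters against 14.2% of all, and CCAAT by 85.2% against 37.9%, in all H1, H2A, H2B and H3 promoters and 3 of 12 H4 promoters. AAACACA was held by 5 of 6 H1 promoters against 7.14% of all.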

How the data were processed

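Whole AGM cells of 1 WT and 1 KO library were profiled by 10x Chromium 3′ sequencing. The deposited counts are UMI counts per gene and barcode, which the authors made with Cell Ranger 3.1.0 on mm10/GRCm38 (per the submitters' processing notes), unfiltered for cells and not normalized. The study's methods name the version of the 10x reference dataset; the annotation release within it is not given in the sources used here, and positions and transcripts shown are those of GENCODE M21. The files held 179743201 UMIs in WT and 174597654 in KO. Barcodes with at least 2000 UMIs numbered 9207 and 9157, of which 954 and 992 were left out for a mitochondrial share of 10% or more.

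Members and gene lists were chosen with earlier results of these data known. A gate needed 3 UMIs from 2 genes of its list and 3 UMIs per 10000. Mesenchyme took barcodes meeting no other gate, and those meeting several other gates were kept apart, except that Myog UMIs decided between the muscle gates; no doublet caller was run, and leaving out the 5% of cells with most UMIs was an alternative. Thinning drew 2000 UMIs per cell. Named members were the 10 with most UMIs, the 5 highest and 5 lowest by state ratio in WT mesenchyme and by KO over WT among those with at least 100 UMIs, and the leading member of each class and family; others named were chosen after their values were seen. Intervals are exact 95% Poisson or binomial intervals. A gene counted as higher or lower past 1.5-fold with at least 20 UMIs. Scripts were tested on simulated data and used Python 3.11.15, numpy 2.4.6, scipy 1.17.1, pandas 2.3.3 and matplotlib 3.10.9. In all, 20 alternatives were set and 2 were added after the data were seen.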

Additional observations from a re-analysis of the deposited data

Results flagged for a closer look

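Without Hist1h2ap, the classes went in opposite directions between the libraries, with intervals apart from 0; the difference between classes was not tested, and each class rests on 1 library per genotype. The log2 ratio of KO over WT was above 0 in the sympathetic neuron gate (0.44), the muscle progenitor gate (0.35), the coelomic and gonadal gate (0.34), the smooth muscle gate (0.34) and the Schwann precursor gate (0.17). It was below 0 in the erythroid gate (-0.63), the myoblast gate (-0.18), the sclerotome gate (-0.17), the epithelial gate (-0.17) and the mesenchyme gate (-0.049). In the macrophage gate (0.06) and the endothelial gate (0.02) the interval held 0. All these sums still hold Hist1h2ae, which was lower in KO in all 12 gates. In WT and KO it was at 204 and 38.6 CPM in the erythroid gate and 274 and 67.4 CPM in myoblasts. It was at 396 and 116 CPM in sclerotome, 76.5 and 35.2 CPM in the epithelial gate and 309 and 107 CPM in mesenchyme. Class sums without both genes were not made, and the part of Hist1h2ae in the signs was not tested.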

How the results depend on the processing

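No paired analysis was possible because each group holds 1 library. Differences rest on 1 library per genotype, and counting error is their only measured error. The summed KO over WT log2 ratio, -0.70 in all cells and -0.80 in mesenchyme, was 0.053 and -0.049 without Hist1h2ap, an alternative chosen after seeing the data. In all cells it was -0.69 with 1000 UMIs, -0.67 with a mitochondrial share under 5%, -0.66 without the 5% of cells with most UMIs, -0.77 with median-ratio scaling, -0.74 scaled without mitochondrial, globin and ribosomal protein genes, -0.64 as the mean of single-cell CPM, -0.72 with free RNA taken off and -0.73 with equal weights of the gates. In mesenchyme it was -0.73 under 5% mitochondrial share, -0.77 without the top 5%, -0.86 with median-ratio scaling, -0.75 as the mean of cells, -0.81 with free RNA taken off, -0.85 without cells holding a Pdgfrb UMI and -0.74 with the stricter gate.

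The state ratio in WT (0.95) was 1.02 with 5000 UMIs, 1.10 with 20% mitochondrial share, 1.23 without the top 5%, 0.91 with the gene-excluding scaling, 1.27 as the mean of cells, 1.07 with the looser gate, 1.91 without thinning, 2.22 by the replication and mitosis lists, 0.81 with another seed and 0.89 without Hist1h2ap. In KO (1.03) it was 1.11, 1.20, 1.28, 0.98, 1.37 and 1.08 with 5% share, 20% share, no top 5%, that scaling, the mean of cells and free RNA taken off, 1.23 and 1.08 with the looser and stricter gate, and 1.51, 1.88 and 1.10 without thinning, by lists and with another seed.

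The WT muscle ratio (0.04) was -0.48 with 5% share, 0.18 without the top 5%, 0.28 as the mean of cells and 0.77 with the stricter gate; in KO (0.54) it was 0.33, 0.72, 0.32 and 0.83 with 5% share, the mean of cells, and the looser and stricter gate. The share of Hist1h2ap in WT (41.9%) was 41.6% with 1000 UMIs, 42.3% with 5000, 39.2% with 5% share, 39.2% without the top 5%, 36.8% as the mean of cells and 42.4% with free RNA taken off. The summed H2A ratio (-2.31) was -0.75 without Hist1h2ap and 0.35 without Hist1h2ap and Hist1h2ae, both chosen after seeing the data. With a fold of 2, 8 members were higher in place of 17. Hist2h2ab (-0.07) was 0.067 with 5% share and 0.0097 with free RNA taken off, and Hist1h3g (0.08) was -0.093 as the mean of cells. The cause of these shifts was not tested.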

Other observations

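Among genes in no list, those with the largest CPM ratio of WT mesenchyme cells with at least 3 histone UMIs after thinning (1589 cells) over cells with 0 (774) were Clec1b, Pf4, Ppbp, Ctla2a, Fermt3, Gp9 and Treml1, followed by Cdca5, Esco2 and Pbk. For Pf4, a platelet chemokine, 98.2% of its 4499 WT UMIs in the gate sat in 5 cells, and in KO its log2 ratio was -4.16 (-4.40 to -3.93). Esco2 and Pbk, which act in cohesion of sister chromatids and in mitosis, were spread over 1132 and 1585 WT cells, with log2 ratios of 2.24 (1.98 to 2.52) and 2.03 (1.84 to 2.22) in WT and 2.51 and 1.91 in KO.

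By depth, cells with 2000 to 5000 UMIs had the highest summed histone level, 2443 CPM in WT and 1709 CPM in KO, and 48.5% and 46.5% of them met no gate; cells with 5000 to 10000 UMIs had the lowest in WT, 1254 CPM, and in KO, 843 CPM.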
